A study of Mus musculus with 30 samples.

Results

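Wnt ligands and genes that respond to Wnt signalling were followed in KH2 mouse embryonic stem cells during a course of retinoic acid (RA). The group was given by name as Axin2, Lef1, Tcf7, Sp5, Dkk1, Wnt3, Wnt3a, Wnt5a and Wnt6, and its members on the array are the probe sets annotated with exactly 1 of these symbols. They are 15 of 34945 single-gene probe sets and 8 of 18193 genes, and Tcf7 was not analysed here because no probe set carries its symbol in the annotation used. Wnt6 and Dkk1 have 2 probe sets each, as do Axin2 and Lef1, Wnt5a has 4, and Sp5, Wnt3 and Wnt3a have 1.

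Wnt proteins are secreted, lipid-modified ligands that bind Frizzled receptors and the co-receptors Lrp5 and Lrp6. In the canonical branch this stops the breakdown of beta-catenin, which enters the nucleus and switches on target genes together with factors of the TCF/LEF family. Among those targets, Axin2 and Dkk1 act back on the pathway as inhibitors. In mouse embryonic stem cells Wnt signalling helps to maintain self-renewal, and in the early embryo it is needed for the primitive streak and for posterior axis formation, where it acts beside RA.

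RNA was measured on 30 Affymetrix mouse genome arrays, 1 per sample. The cells of all groups were KH2, a mouse embryonic stem cell line, and no other genotype or agent was compared. The groups are 8 h, which the labels call baseline, and then 12 h, 16 h, 24 h, 36 h, 48 h, 60 h and 72 h, labelled retinoic acid, with 3 arrays lettered A to C at each time and 3 more lettered D to F at both 12 h and 24 h. RA was used at 0.3 uM, and the labels do not say whether the 8 h cells had received it. Cells grew on feeder cells and were replated on gelatin for 30 minutes before lysis, and 2 of the protocol texts differ on whether adhered or unbound cells were kept. Nothing in the labels says that the 3 arrays of a group came from separate cultures, so the spread that the p-values rest on may be technical.

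The arrays fell into 2 sets by their spike-in controls, where the difference between the BioDn5 and BioC5 probe sets was 0.993 to 1.07 log2 on 12 arrays (8 h, 12 h A to C, 16 h, 24 h A to C) and 1.34 to 1.63 log2 on 18 arrays (12 h D to F, 24 h D to F and all later times). Comparisons between times were therefore made within a set, arrays D to F and A to C were set against each other across the sets at 12 h and 24 h alone, and 8 h was not compared with 36 h or later, where array set and time cannot be told apart. The 25th percentile of all values was 4.79 log2, and a level below it is called dim here because no detection calls were used. Pluripotency genes checked the label of the cells: the mean over 14 of them was 12.1 to 12.2 log2 on the 8 h arrays, and between 12 h D to F and 72 h, 12 of the 14 fell. The fall was not steady. At 60 h against 48 h, 10 of the 14 were lower and none higher, and at 72 h against 60 h, 9 were higher and 1 lower. In such bulk samples fewer cells of a type and less RNA per cell cannot be told apart.

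The sequences shown are those just before the annotated starts of Sp5, Dkk1 and Axin2, the 3 targets that stood apart between arrays D to F and A to C at 12 h. They come from RefSeq (GRCm38.p6), where 12 windows matched 8 of the 9 listed genes, and each is given as its 250 bases before the start, read in the direction of the gene. The windows lie at chr2:70474673-70474922 on the plus strand for Sp5, chr19:30549497-30549746 on the minus strand for Dkk1 and chr11:108920099-108920348 on the plus strand for Axin2. Capitals mark a match to a TCF/LEF core.
Sp5: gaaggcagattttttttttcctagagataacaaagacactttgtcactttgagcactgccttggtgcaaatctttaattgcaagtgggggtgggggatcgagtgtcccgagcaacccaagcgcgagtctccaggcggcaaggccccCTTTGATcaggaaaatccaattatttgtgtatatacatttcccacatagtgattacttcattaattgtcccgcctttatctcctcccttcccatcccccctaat
Dkk1: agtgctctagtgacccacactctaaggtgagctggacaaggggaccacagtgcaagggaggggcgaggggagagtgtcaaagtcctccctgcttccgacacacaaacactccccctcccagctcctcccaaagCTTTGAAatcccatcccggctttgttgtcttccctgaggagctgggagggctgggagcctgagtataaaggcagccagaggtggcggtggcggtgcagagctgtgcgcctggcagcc
Axin2: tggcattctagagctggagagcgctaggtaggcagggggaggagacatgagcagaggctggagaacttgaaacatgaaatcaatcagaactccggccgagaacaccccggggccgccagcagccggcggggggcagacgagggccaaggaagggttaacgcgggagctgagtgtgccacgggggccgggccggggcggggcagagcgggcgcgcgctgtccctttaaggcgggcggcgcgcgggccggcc
Both strands were searched for the TCF/LEF cores CTTTGAT and CTTTGAA and for the RA receptor motifs AGGTCA and AGTTCA. The Sp5 window holds CTTTGAT and the Dkk1 window CTTTGAA, while none of the 4 motifs is in the letters of the Axin2 window. Of the 12 windows, these 2 held a TCF/LEF core, and among 32851 promoter windows of the same length 7.48% did. CTTTGAT was in 3.21% of all windows, CTTTGAA in 4.46%, AGGTCA in 14.0% and AGTTCA in 11.8%. A match describes the letters and does not show that a factor binds there.

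**Figure D1:**
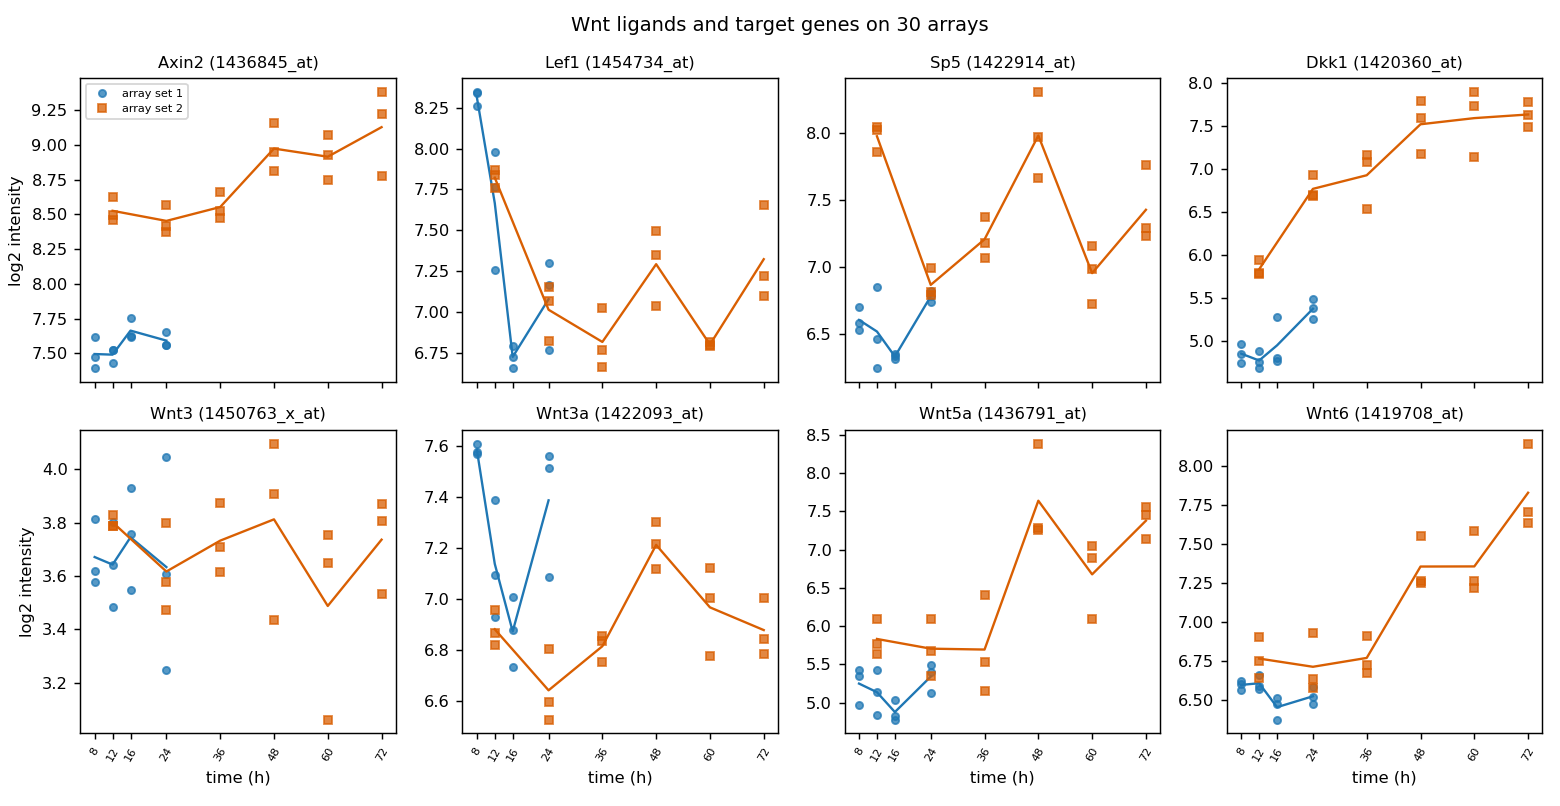
Log2 intensity (vertical axis) of the brightest probe set of each of 8 genes against time in hours, 1 point per array (circles: array set 1, squares: array set 2), with lines through the means of 3 arrays. Lef1 in set 1 was highest at 8 h. In set 2 Dkk1 climbed to between 7.49 and 7.78 at 72 h, and Sp5 was highest at 12 h, the first time of that set, and at 48 h.

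Over the early course, from 8 h to 24 h within the arrays lettered A to C, the change of this group was mainly a fall of Lef1, the DNA-binding partner of beta-catenin. Wnt3a, a canonical ligand, fell and then came back. Axin2, Wnt6 and the brighter Wnt5a probe sets did not pass any test in this window. The moderated F test across these 4 times called 4 of the 15 probe sets, of Lef1, Dkk1 and Wnt3a, against 47.0% of all probe sets.

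Lef1 (probe set 1454734_at) had 8.34, 8.26 and 8.34 log2 at 8 h, 7.98, 7.26 and 7.76 at 12 h A to C, 6.79, 6.72 and 6.65 at 16 h, and 7.30, 6.77 and 7.17 at 24 h A to C. The 8 h arrays were above all others, the 16 h arrays were the lowest apart from an overlap with 24 h B, and the ranges of 24 h and 12 h overlapped. At 16 h it was 3.01-fold lower than at 8 h (−1.59 ± 0.16 log2, SE, limma adjusted p = 2.59e-08, n = 3 each). At 24 h A to C its change against 8 h was −1.24 ± 0.16 (limma adjusted p = 1.5e-06). The dimmer Lef1 probe set 1421299_a_at fell too, by 0.67 at 16 h and by 0.68 at 24 h A to C against 8 h.

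At 12 h A to C against 8 h, Lef1 (−0.65 ± 0.16, limma adjusted p = 0.0068) and Wnt3a (−0.45 ± 0.12, limma adjusted p = 0.0107) were the only 2 of the 15 probe sets called, against 14.1% of all probe sets. Both calls rested on array 12 h B, the lowest of its group for both genes: without it the changes were −0.45 and −0.34, and neither passed.

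Wnt3a (1422093_at), the ligand that maintains the mesoderm progenitors of the tail in the embryo, had 7.61, 7.57 and 7.58 log2 at 8 h, 7.09, 6.93 and 7.39 at 12 h A to C, 6.73, 6.88 and 7.01 at 16 h and 7.51, 7.09 and 7.56 at 24 h A to C. The 8 h arrays stood above every later array of the set, and the 24 h arrays above every 16 h array. Against 8 h it was lower at 16 h by −0.71 ± 0.12 log2 (limma adjusted p = 2.63e-05), one of 3 member probe sets called there against 36.5% of all. Against 16 h it was higher at 24 h A to C by 0.51 ± 0.12 (limma adjusted p = 0.00142), and its 24 h level did not pass the test against 8 h. In that same step Sp5 was called as well (0.45, limma adjusted p = 0.0269), in 2 of 15 member probe sets against 28.9% of all. The Sp5 call held only where 24 h B was left out, and otherwise the change was 0.43 to 0.46.

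Dkk1, the secreted inhibitor that takes Lrp5 and Lrp6 away from Wnt, had 5.39, 5.49 and 5.26 log2 at 24 h A to C, against 4.75, 4.97 and 4.86 at 8 h (1420360_at). The 24 h arrays lay above the 8 h arrays, which were near the dim level. The difference was 0.52 ± 0.18 (limma adjusted p = 0.0277). It was not called without 8 h A (0.46), 8 h C (0.52), 24 h A (0.51) or 24 h B (0.47). Together with the 2 Lef1 probe sets and Wnt5a 1456976_at, which is dim in every group and fell by 0.29, this made 4 of 15 called at 24 h A to C against 8 h, where 31.5% of all probe sets were called. The Wnt5a call ended without any of the 8 h arrays, 24 h A or 24 h B.

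From 12 h D to F to 72 h the group moved more widely. Of the 15 probe sets, 12 passed the F test over these 6 times, from 7 of the 8 genes, against 60.9% of all probe sets. The inhibitor Dkk1 and the ligands Wnt5a and Wnt6 had the largest rises, Axin2 rose less, and Lef1 and Sp5 were lower at 72 h than at 12 h D to F. In that comparison 8 probe sets of 4 genes were higher and 2 of 2 genes lower, and 53.5% of all probe sets were called (23.3% higher, 30.2% lower).

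Dkk1 had 5.78, 5.94 and 5.79 log2 at 12 h D to F, 6.70, 6.68 and 6.93 at 24 h D to F, 6.53, 7.08 and 7.17 at 36 h, 7.59, 7.79 and 7.17 at 48 h, 7.14, 7.73 and 7.89 at 60 h and 7.49, 7.78 and 7.63 at 72 h. Its last 3 times overlapped each other, 36 h overlapped 24 h and 60 h, and 12 h was below all. At 72 h it was 3.47-fold above 12 h D to F (1.79 ± 0.18 log2, limma adjusted p = 5.25e-09, n = 3 each). The step from 12 h to 24 h within D to F was 0.93 ± 0.18 (limma adjusted p = 0.000337). The second Dkk1 probe set, 1458232_at, is dim in 9 of the 10 groups and was 0.91 higher at 72 h than at 12 h D to F (limma adjusted p = 8.71e-05).

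Axin2 (1436845_at), a scaffold of the beta-catenin destruction complex whose transcription is widely read as a report of Wnt activity, had 8.63, 8.46 and 8.49 log2 at 12 h D to F, 8.38, 8.57 and 8.42 at 24 h D to F, 8.48, 8.52 and 8.66 at 36 h, 8.95, 9.16 and 8.81 at 48 h, 9.07, 8.75 and 8.93 at 60 h and 9.38, 9.23 and 8.78 at 72 h. The arrays of the 3 earlier times and those of the 3 later times did not overlap, and among themselves the 3 earlier times overlapped, as did the 3 later ones. At 72 h it was higher than at 12 h D to F by 0.60 ± 0.11 log2 (limma adjusted p = 7.4e-05). The other Axin2 probe set, 1421341_at, was dim in all 10 groups at 3.58 to 4.24 and was called in no comparison, so a change was not detectable with it.

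Sp5 (1422914_at), a zinc-finger factor and direct Wnt target, had 8.05, 8.02 and 7.86 log2 at 12 h D to F, 6.81, 6.79 and 6.99 at 24 h D to F, 7.17, 7.07 and 7.37 at 36 h, 7.97, 8.30 and 7.67 at 48 h, 7.16, 6.72 and 6.98 at 60 h and 7.29, 7.76 and 7.23 at 72 h. The 12 h and 48 h arrays overlapped at the top of this course, and 12 h lay above every array of 24 h, 36 h, 60 h and 72 h. It fell 2.16-fold between 12 h and 24 h in D to F (−1.11 ± 0.15, limma adjusted p = 6.87e-06), one of 3 member probe sets called against 25.4% of all, with Lef1 (−0.81 ± 0.16, limma adjusted p = 0.000453) and Dkk1. At 72 h Sp5 was lower than at 12 h D to F by −0.55 ± 0.15 (limma adjusted p = 0.00357). With D to F and A to C pooled at 12 h that difference turned to 0.18, not called. The pooled 12 h group then holds the A to C arrays, at 6.24 to 6.85.

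Lef1 had 7.84, 7.87 and 7.76 log2 at 12 h D to F, 7.07, 6.82 and 7.15 at 24 h D to F, 6.66, 6.77 and 7.02 at 36 h, 7.35, 7.50 and 7.03 at 48 h, 6.79, 6.82 and 6.79 at 60 h and 7.10, 7.65 and 7.22 at 72 h. The 12 h arrays were above all later ones, and each later mean overlapped its neighbour in rank. The 72 h difference from 12 h D to F was −0.50 (limma adjusted p = 0.0102), and without 72 h A it was −0.39 and not called.

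**Figure D2:**
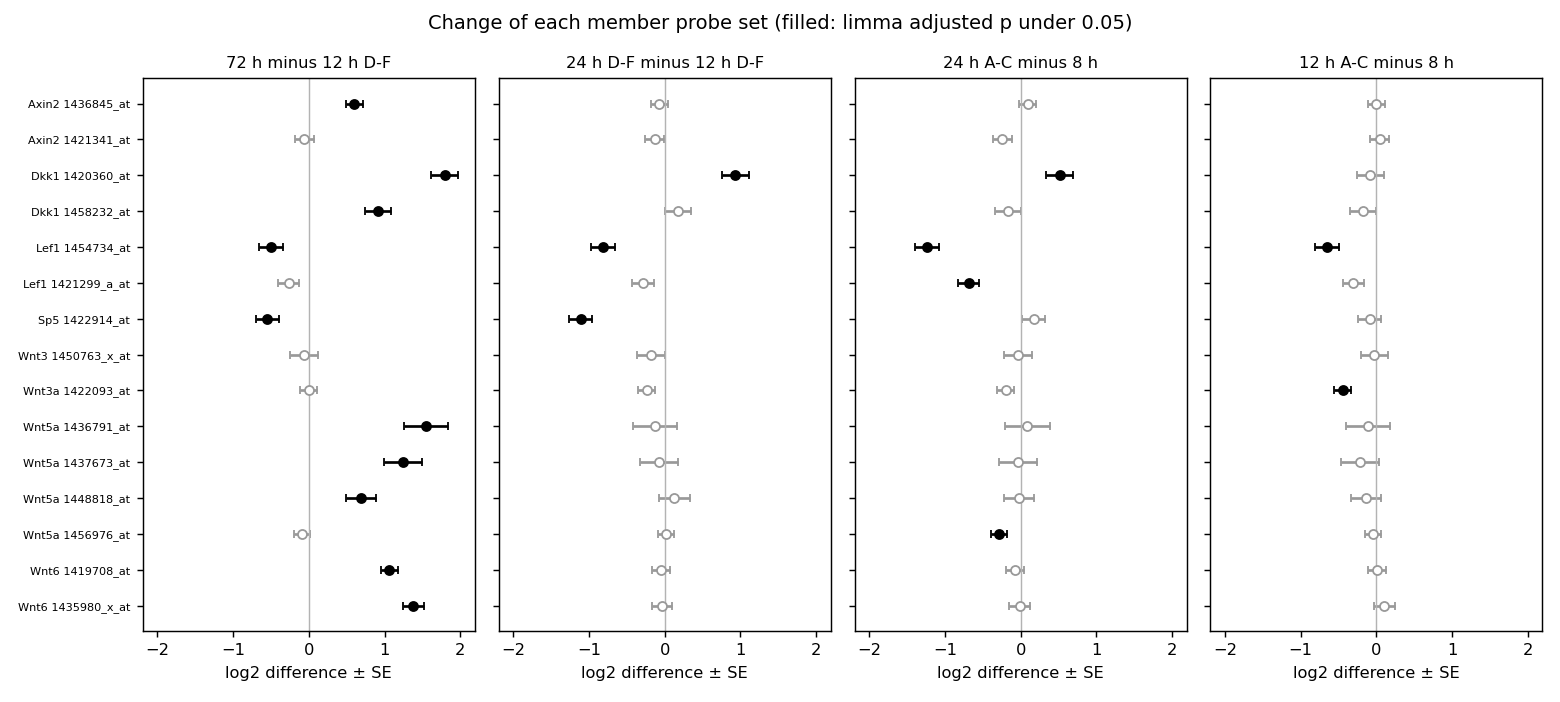
Log2 differences ± SE (horizontal axis, limma, 3 arrays against 3) of the 15 member probe sets in 4 comparisons, with filled points where the adjusted p was under 0.05. Lef1 1454734_at fell in all 4, while Dkk1, Wnt5a and Wnt6 rose most at 72 h against 12 h D to F.

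Wnt5a, a ligand known for signalling outside the beta-catenin branch through Ror receptors, had its main step between 36 h and 48 h. Its brightest probe set, 1436791_at, had 7.28, 7.25 and 8.39 log2 at 48 h, against 5.15, 5.53 and 6.41 at 36 h. The 2 times did not overlap, and the C array was the highest of its group at both times. The difference was 3.85-fold (1.95 ± 0.30 log2, limma adjusted p = 5.58e-05), and it stayed called with each array left out in turn, at 1.57 to 2.30. Probe sets 1437673_at (1.69) and 1448818_at (1.19) rose as well, and 1456976_at, dim throughout, did not pass. Of these, 1437673_at was dim in 8 of the 10 groups, 36 h among them.

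At the earlier times of this set Wnt5a 1436791_at had 5.64, 5.77 and 6.10 log2 at 12 h D to F and 5.35, 5.67 and 6.10 at 24 h D to F, which overlapped each other and 36 h. After 48 h it had 6.10, 7.05 and 6.89 at 60 h and 7.45, 7.14 and 7.55 at 72 h. The 60 h level was lower than that of 48 h by −0.96 (limma adjusted p = 0.0245), a call that ended without 48 h C (−0.59) or 60 h A (−0.67). At 72 h it was 2.92-fold above 12 h D to F (1.55 ± 0.30 log2, limma adjusted p = 9.21e-05).

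Fibroblast markers rose with Wnt5a between 36 h and 48 h, but not only then. Of 20 listed, 19 were measured, and 18 of them were higher at 48 h than at 36 h, 18 also at 72 h than at 12 h D to F. At 36 h against 12 h D to F, 11 of the 19 were already higher and none lower, while no Wnt5a probe set was called. The mean log2 over the 19 genes was 10.31, 9.73 and 10.77 on 48 h A, B and C, against 8.62, 8.73 and 9.12 on 36 h A, B and C, and array 48 h C was the highest of the 30 for this mean and for Wnt5a alike. By group the mean spanned 7.42 to 7.67 at 8 h, 7.60 to 8.34 at 12 h D to F, 9.39 to 10.07 at 60 h and 9.69 to 10.51 at 72 h. None of the 19 was dim at 36 h or later, and at 8 h 1 was. Their part in the rises of Wnt5a, Wnt6 and Axin2 was not tested.

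**Figure D3:**
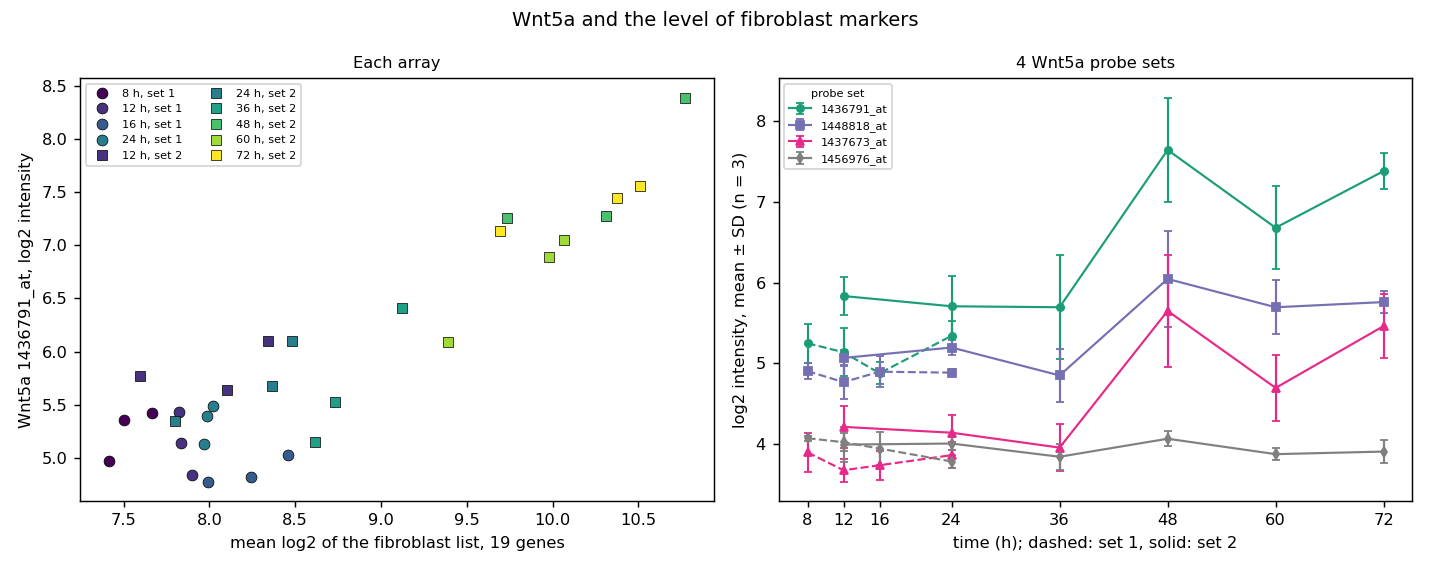
Left: Wnt5a log2 intensity (1436791_at) against the mean log2 of 19 fibroblast genes on each of 30 arrays, coloured by time, with circles for set 1 and squares for set 2. Right: mean ± SD (n = 3) of the 4 Wnt5a probe sets over time, where 3 rise between 36 h and 48 h and 1456976_at stays near 4.

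Wnt6, a ligand expressed in surface ectoderm and in extraembryonic endoderm of the mouse embryo, rose late. Probe set 1419708_at had 6.90, 6.75 and 6.64 log2 at 12 h D to F, 6.63, 6.57 and 6.92 at 24 h D to F, 6.67, 6.72 and 6.91 at 36 h, 7.55, 7.25 and 7.26 at 48 h, 7.58, 7.22 and 7.26 at 60 h and 8.14, 7.70 and 7.64 at 72 h. The first 3 times overlapped, 48 h and 60 h overlapped, and every 72 h array was above every other array of the set. It was 2.09-fold higher at 72 h than at 12 h D to F (1.06 ± 0.12 log2, limma adjusted p = 3.14e-08), and 1435980_x_at was higher by 1.38. From 8 h to 24 h A to C neither probe set was called, with 6.37 to 6.66 log2 for 1419708_at.

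Of 13 extraembryonic endoderm markers, 11 were also higher at 72 h than at 12 h D to F and none was lower. Their mean log2 was 9.75 to 10.2 at 72 h, against 8.29 to 8.42 at 12 h D to F, and none of the 13 was dim at either time. By step, at 48 h against 36 h, where Wnt6 was called higher, 5 of the 13 were higher and none was lower. At 60 h against 48 h, 9 of the 13 were higher while neither Wnt6 probe set was called. At 72 h against 60 h, where both Wnt6 probe sets rose, none of the 13 was higher and 1 was lower. The part of these markers in the rise of Wnt6 was not tested.

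The other 2 ligands behaved differently. Wnt3, which starts the primitive streak in the mouse embryo, was dim in all 10 groups at 3.06 to 4.10 log2 (1450763_x_at) and was called in no comparison, so a change of Wnt3 was not detectable with this probe set. Wnt3a had 6.82, 6.96 and 6.87 log2 at 12 h D to F, 6.53, 6.59 and 6.80 at 24 h D to F, 6.85, 6.75 and 6.83 at 36 h, 7.22, 7.12 and 7.30 at 48 h, 6.78, 7.00 and 7.12 at 60 h and 6.78, 6.84 and 7.00 at 72 h. Its 48 h arrays were the highest, overlapping 60 h alone, and the remaining times overlapped their neighbours in rank.

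The step from 36 h to 48 h took most of the group upward together. At 48 h 10 of the 15 probe sets were higher than at 36 h and none was lower, from Axin2, Dkk1, Lef1, Sp5, Wnt3a, Wnt5a and Wnt6, against 6.01% of all probe sets higher and 10.2% lower. Sp5 (0.78 ± 0.15 log2, limma adjusted p = 0.000803), Wnt6 (0.59 ± 0.12, limma adjusted p = 0.00101) and 3 probe sets of Wnt5a stayed called with any 1 array left out. The smaller changes did not: Axin2 (0.42, limma adjusted p = 0.0112) was lost without 36 h A or 48 h B, and Dkk1 (0.59, limma adjusted p = 0.0237) without 36 h A, 48 h A or 48 h B. Wnt3a (0.40, limma adjusted p = 0.0204) was lost without 36 h B, 48 h A or 48 h C. Lef1 (0.48, limma adjusted p = 0.0415) was lost without 36 h A, 36 h B, 48 h A or 48 h B. Without 36 h A, 48 h A or 48 h B the count of genes was 4.

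The steps on either side held fewer calls. At 36 h against 24 h D to F none of the 15 was called by limma, with 1 at an unadjusted p under 0.05, and 9.22% of all probe sets were. At 60 h against 48 h, 4 were lower and none higher, with 18.4% of all called. Sp5 fell by 1.03 in that step (limma adjusted p = 4e-05), and Lef1 fell by 0.49, a call that held only where 48 h C was left out. The other two were probe sets of Wnt5a, where the call of 1437673_at, like that of 1436791_at, ended without 48 h C (−0.56) or 60 h A (−0.73). At 72 h against 60 h, 4 were higher, both probe sets of Lef1 and of Wnt6, with 9.06% of all called. There Wnt6 1435980_x_at rose by 0.77 (limma adjusted p = 0.000963), a call that stood without any 1 array, whereas 1419708_at (0.47) was lost without 60 h B or 72 h A and Lef1 1454734_at (0.52) was lost without 60 h A, B or C, 72 h B or 72 h C. Lef1 1421299_a_at (0.47) was lost without 60 h A, 72 h B or 72 h C.

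The times 12 h and 24 h were measured in both array sets, and the targets Axin2, Sp5 and Dkk1 differed between them. At 12 h Axin2 had 8.63, 8.46 and 8.49 log2 in D to F, against 7.52, 7.52 and 7.43 in A to C, a difference of 1.04 ± 0.11 (limma adjusted p = 1.68e-07). Sp5 had 8.05, 8.02 and 7.86 in D to F, against 6.46, 6.24 and 6.85 in A to C, or 2.75-fold more (1.46 ± 0.15, limma adjusted p = 8.03e-08). Dkk1 had 5.78, 5.94 and 5.79 in D to F, against 4.76, 4.89 and 4.69 in A to C (1.06 ± 0.18, limma adjusted p = 4.95e-05). Its A to C mean was dim, at 4.78 log2. Axin2, Sp5 and Dkk1 had the only 3 of 15 member probe sets called, with 32.8% of all probe sets called. For 7 of the 15 the letters did not overlap, and for 44.8% of all probe sets.

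At 24 h the pattern was not the same. Axin2 had 8.38, 8.57 and 8.42 in D to F, against 7.56, 7.65 and 7.56 in A to C (0.86, limma adjusted p = 3.05e-06). Dkk1 had 6.70, 6.68 and 6.93 in D to F, against 5.39, 5.49 and 5.26 in A to C (1.39, limma adjusted p = 2.18e-06), and the call of its dim second probe set (0.55) ended without 24 h A, B, D or F. Wnt3a had 6.53, 6.59 and 6.80 in D to F, against 7.51, 7.09 and 7.56 in A to C (−0.74, limma adjusted p = 2.89e-05). Sp5 had 6.81, 6.79 and 6.99 in D to F, against 6.78, 6.73 and 6.82 in A to C, which overlapped. In all, 4 of 15 member probe sets were called, with 28.8% of all called.

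The change from 12 h to 24 h was tested for a difference between the letters, and 2 of 15 member probe sets were called, with 15.0% of all. For Sp5 the D to F change minus the A to C change was −1.37 ± 0.21 log2 (limma adjusted p = 9.24e-05). For Wnt3a the difference was −0.49 ± 0.16 (limma adjusted p = 0.047), a call that held only where 12 h C, 24 h B or 24 h F was left out. Extraembryonic endoderm markers moved with the letters: 8 of 13 were higher in 12 h D to F and none lower, with a mean of 8.29 to 8.42 log2 in 12 h D to F against 7.70 to 7.73 in 12 h A to C. At 24 h, 9 of the 13 were higher in D to F and none lower. Other lists had calls at 12 h too. Of 9 primitive streak and mesoderm markers 3 were higher and none lower. Trophoblast markers had 4 of 9 higher and 1 lower, and fibroblast markers 5 of 19 and 1. Neural markers had 3 of 9 higher and 1 lower, and pluripotency genes 1 of 14 higher and 4 lower. An 18S ribosomal 5 prime control read 7.99 to 9.17 on the arrays of set 2 and 9.03 to 11.1 on those of set 1. The part of these in the differences was not tested, and letter and array set cannot be told apart.

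**Figure D4:**
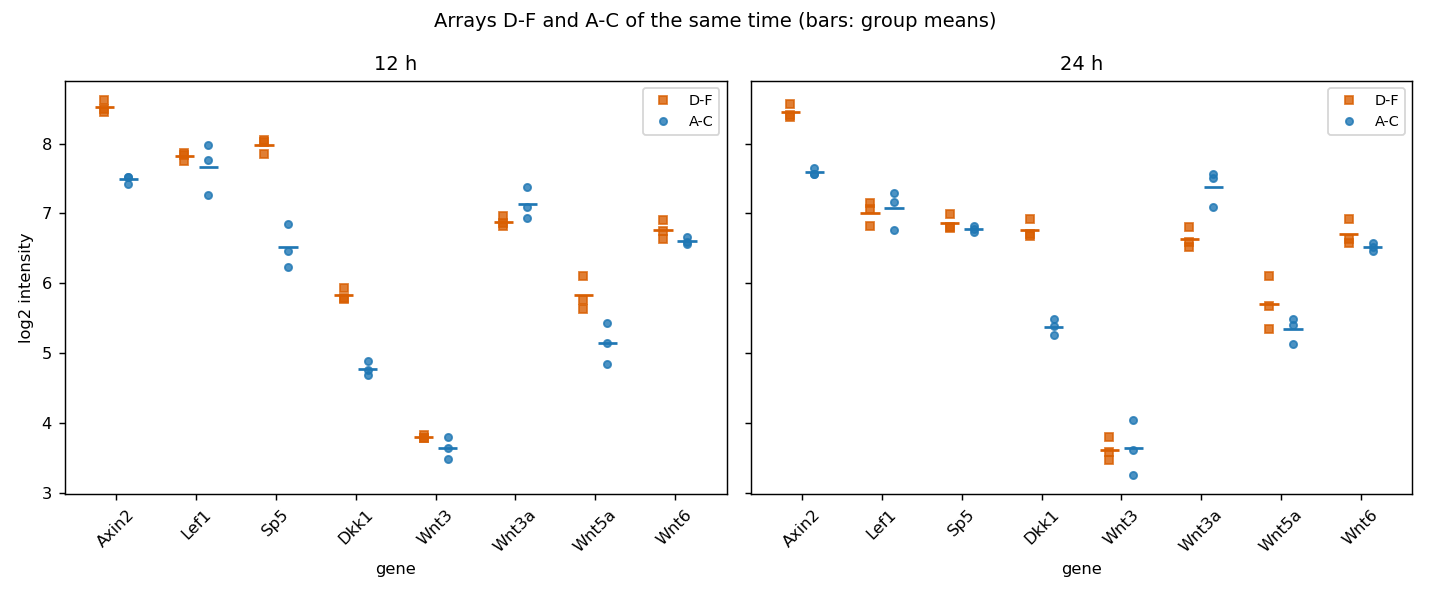
Log2 intensity of 8 genes on the arrays D to F (squares, left of each pair) and A to C (circles, right) at 12 h and 24 h, with bars at group means. Axin2 and Dkk1 were higher in D to F at both times and Sp5 at 12 h, while Wnt3a was lower in D to F at 24 h.

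Other genes of the pathway, from lists of each role and with 1 probe set per gene, give the setting in which these members moved. Between 12 h D to F and 72 h, 16 of 19 receptors and co-receptors were higher and 2 lower, with a median difference of 0.77 log2 against −0.09 over all genes, of which 25.7% were called higher and 33.4% lower. Ror1, a Wnt5a receptor, rose by 3.23, the R-spondin receptor Lgr5 by 2.58, and the Frizzled receptors Fzd1 and Fzd3 by 2.46 and 2.10. The list of secreted antagonists, which also holds the membrane protein Kremen1, had 9 of 14 higher and 1 lower, with a median of 0.57. Among the 9 were Kremen1 (0.33) and Wif1, which was dim at 12 h D to F (2.75 log2) and at 72 h (3.20 log2). Sfrp5, Frzb and Sfrp2, which bind Wnt proteins, rose by 2.67, 2.30 and 1.43, and Dkk2, a relative of Dkk1, by 2.23. Lgr5 and Dkk2 were dim at 12 h D to F (4.53 and 4.52 log2) and not at 72 h (7.11 and 6.74 log2). In this comparison 18 of 19 fibroblast, 11 of 13 extraembryonic endoderm and 7 of 9 neural markers were higher and none of them lower. Of 9 trophoblast markers 5 were higher and 2 lower, and of 9 primitive streak and mesoderm markers 1 was higher and 7 lower. The part of these markers in the changes of the pathway lists was not tested.

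At 72 h against 12 h D to F, 6 of 15 other ligands were higher and 3 lower (median 0.09). Wnt8a, a ligand of the primitive streak, fell by 2.20, while Wnt4, Wnt9a and Wnt1 rose by 2.01, 1.90 and 1.74. Among 6 genes of ligand secretion and agonists, 2 were higher and 3 lower: Wls, the carrier that brings Wnt proteins to the cell surface, rose by 2.66 and Rspo3, a secreted enhancer of Wnt signalling, by 2.44, and Rspo1 and Porcn fell by 0.79 and 0.50. Wnt1 and Rspo3 were dim at 12 h D to F (4.77 and 4.69 log2) and not at 72 h (6.51 and 7.12 log2).

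Of 12 relay and destruction complex genes 5 were higher and 3 lower (median 0.06), among them Gsk3b, the kinase that marks beta-catenin for breakdown, at 0.94 and Ctnnb1, beta-catenin itself, at 0.40. Of 10 nuclear partners 6 were higher and 1 lower (median 0.32), the last being the co-repressor Tle4, which fell by 1.10. Of 15 other target genes 2 were higher, Lgr5 and Apcdd1 (0.93), and 5 lower, including Myc (−0.64), with a median of −0.04.

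Over the early window, at 24 h A to C against 8 h, the receptors and co-receptors had 10 of 19 higher and 2 lower and a median of 0.26, against −0.02 over all genes, of which 22.5% were called higher and 14.5% lower. Fzd3 rose by 1.15, and Fzd8 and Fzd2, named after their values were seen, rose by 1.44 and 1.34. Wls was higher by 2.08 ± 0.14 (limma adjusted p = 4.01e-11). Among other targets Sp8, a relative of Sp5, rose by 1.73 and Myc fell by 1.29. Of 15 other ligands 3 were higher and 1 lower, and of the 14 genes on the antagonist list likewise 3 and 1. In the same comparison 11 of 14 pluripotency genes were lower and none higher (median −0.54), while 5 of 19 fibroblast, 4 of 13 extraembryonic endoderm, 4 of 9 neural and 4 of 9 trophoblast markers were higher and none of these lower. Of 9 primitive streak and mesoderm markers 1 was higher and 2 lower. The part of all these markers in the early changes of the pathway lists was not tested.

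**Figure D5:**
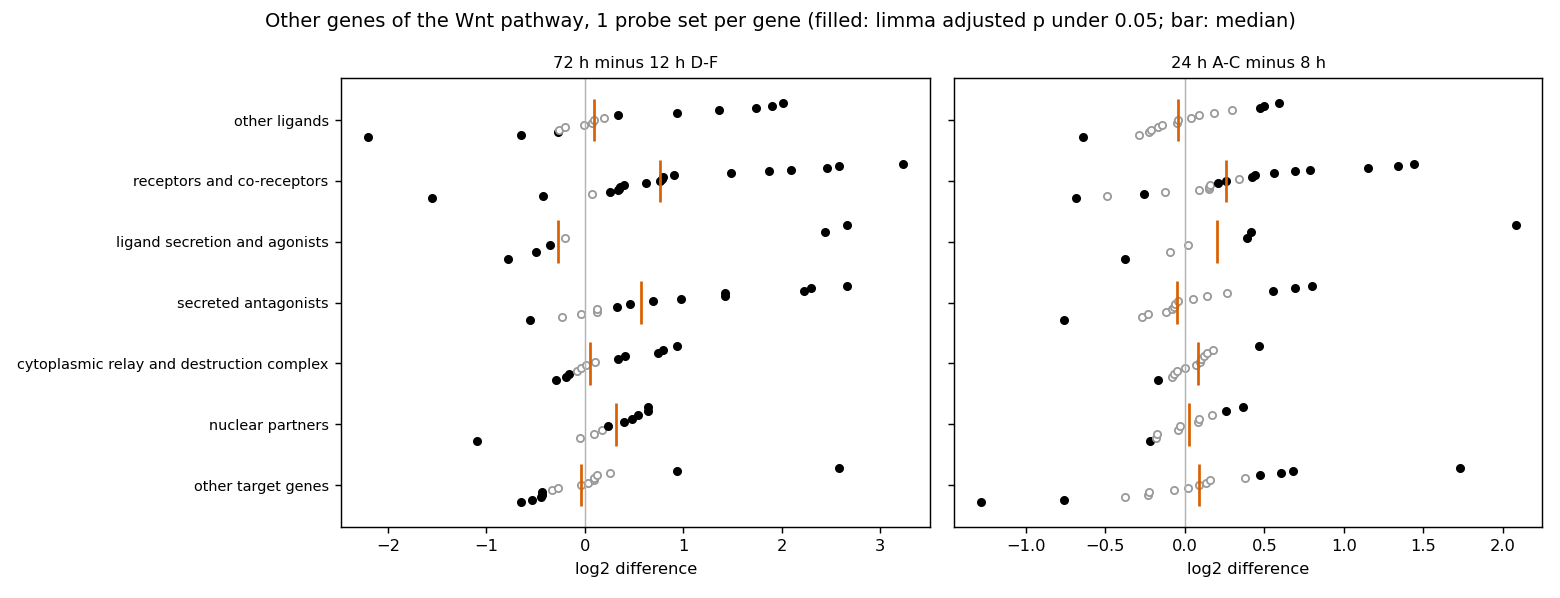
Log2 differences (horizontal axis) of single genes in 7 lists of the Wnt pathway, at 72 h against 12 h D to F (left) and at 24 h A to C against 8 h (right), filled where limma's adjusted p was under 0.05, with a bar at each list's median. Receptors and antagonists lie mostly right of 0 on the left panel, and the members themselves are not in the lists.

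The courses were also set against all genes with a called F test in either set, 13436 of them, by Pearson's r over 10 group means centred on their array set. These points share arrays and come from smooth time courses, so r is a description. Wnt6 was most like Kif26b (0.989) and Igf1 (0.986), Axin2 most like Ghr (0.990) and Adamts6 (0.988), and Wnt5a most like Ccn4 (0.977) and Adam12 (0.973). Dkk1 was most like Micos10 (0.983) and Mast4 (0.982), and Lef1 most like 9930104L06Rik (0.977) and Pih1d2 (0.970). Sp5 was nearest to Ccl17 and Dhrs13 (0.964 each), and Wnt3a to Rundc1 (0.955) and Myoz3 (0.919). By Spearman's rho both neighbours of Axin2 and of Wnt3a stayed among the first 10, and none of those of Lef1, Dkk1 and Wnt6 did. Among the members, Wnt6 and Axin2 (0.925), Wnt6 and Wnt5a (0.888) and Wnt5a and Axin2 (0.883) had the closest courses, and Lef1 and Dkk1 (−0.43) the most opposed.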

How the data were processed

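Total RNA, 200 ng per sample labelled with biotin per the labels' protocols, was measured on 30 Affymetrix arrays. The authors deposited log2 intensities normalised between arrays: lower quartiles were 4.73 to 4.85, medians 6.34 to 6.39 and upper quartiles 8.56 to 8.70. The submitters' processing notes name limma 3.8.3 for the authors, and the background correction and probe summary are not given in the sources used here. Arrays have no read depth, and 3 arrays per group limit the precision. Identical values were found in 0 of 30 pairs of arrays of the same group.

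The table has 45101 probe sets, and those with exactly 1 symbol and no control role, 34945, were kept. Symbols come from the platform annotation, which can be old. Tests used limma 3.58.1 (R 4.3.3) with 10 groups (time by letters A to C or D to F) in 1 fit of all arrays, two-sided, with Benjamini-Hochberg adjustment over the 34945 probe sets of each comparison and calls at 0.05. The fit was tested on simulated data. A gene in a list was represented by its probe set with the highest mean, and up to 4 called genes per list were named, those with the largest change in either of 24 h A to C against 8 h and 72 h against 12 h D to F, as were the 2 genes most like each member. The members, lists, comparisons and array sets were chosen with earlier results of these data known. Same letters were not taken as pairs: in 8 comparisons of groups that share letters, correlations of same-letter deviations from the group means ran from −0.267 to 0.515, and in none were all 3 above 0.1. Alternatives covered scaling, filters, probe choice, variance prior, array weights, the arrays in the fit, pooled letters, a replicate block and each array left out.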

Additional observations from a re-analysis of the deposited data

Results flagged for a closer look

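The change from 12 h to 24 h differed between arrays D to F and A to C for 2 member probe sets, by limma's test of the difference itself with adjustment over all 34945 probe sets. For Sp5 it was −1.37 log2 (adjusted p = 9.24e-05), and −1.54 to −1.24 with each of the arrays left out in turn. In D to F Sp5 had 6.81, 6.79 and 6.99 at 24 h, against 8.05, 8.02 and 7.86 at 12 h, and in A to C it had 6.78, 6.73 and 6.82 at 24 h, against 6.46, 6.24 and 6.85 at 12 h. For Wnt3a it was −0.49 log2 (adjusted p = 0.047). That value was not called in a fit of the 4 groups of 12 h and 24 h alone.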

How the results depend on the processing

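At 12 h A to C against 8 h, 4932 probe sets were called, 7926 with array weights, 1077 with letters A to F pooled, and 3063 to 4493 with 1 array left out, where the count was lowest without 12 h B. The member genes called there were 2, against 1 with pooled letters and 0 to 2 with 1 array left out. With 1 probe set per gene, which tests fewer features, 7154 were called at 24 h A to C against 8 h, 5605 at 24 h D to F against 12 h D to F and 11030 at 72 h against 12 h D to F. With 1 array left out, the member genes called were 1 to 3 at 24 h A to C against 8 h, 4 to 7 at 48 h against 36 h, and 1 to 3 at 60 h against 48 h, at 72 h against 60 h and at 24 h A to C against 16 h. For the difference between letters in the change from 12 h to 24 h they were 1 to 2, and 1 in the fit of those 4 groups alone. Sp5 at 72 h against 12 h D to F reversed to 0.18 with pooled letters. The runs that left out 1 array or changed the scaling outside the 4 main comparisons were chosen after seeing the data. A replicate block for the letter was a fixed term at 12 h and at 24 h A to C against 8 h, in array set 1. At 24 h D to F against 12 h D to F it was fixed too, with those 2 groups alone. At 72 h against 12 h D to F it was a random term over all arrays. In this order 5278, 11829, 8255 and 18683 probe sets were called in the 4 main comparisons, and the member genes called were 2, 4, 3 and 6. Of the single-array exclusions over named probe sets, 280 stayed on the same side of the threshold, 61 ended a call and 1 added one, and of the other alternatives 293 stayed, 11 added a call, 5 ended one and 1 reversed the direction. The cause of these changes was not tested. Dim levels under 4.79 limit what Wnt3, Axin2 1421341_at, Dkk1 1458232_at and Wnt5a 1456976_at can show.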
